A study of Mus musculus with 27 samples.

Results

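The 87 genes described here encode, by their symbols, the proteins of the cytosolic ribosome in mouse erythroleukaemia (MEL) cells, an established line of leukaemic red cell progenitors. They were taken from the 14558 genes listed in all 5 RNA-Seq tables as every symbol that starts with Rpl or Rps and a number, plus Rpsa, Rplp0, Rplp1 and Rplp2, without the Rps6k kinases and pseudogene symbols. The rule itself uses names and no measured value, though earlier results of these data were known when it was chosen. Of the members, 34 have Rps names (Rpsa included), which stand for the small subunit, and 53 have Rpl names (the stalk genes included), which stand for the large subunit. The rule also takes paralogues such as Rpl3l, Rpl10l, Rpl22l1, Rpl39l, Rpl36al, Rps27l and Rps4l, as well as Rps19bp1, which encodes a protein that binds RPS19 and is not a subunit.

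Ribosomal proteins and ribosomal RNA are made in near equal amounts, assembled in the nucleolus with the help of a large set of assembly factors, and exported as subunits. The messages of ribosomal proteins begin with a run of pyrimidines, the 5′ terminal oligopyrimidine (TOP) motif, through which the mTOR pathway and LARP1 set their translation. Red cell precursors depend on a steady supply of ribosomes, and loss of a single copy of genes such as Rps19, Rpl5 or Rpl11 underlies Diamond-Blackfan anaemia, in which red cells fail to form.

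The RNA-Seq covered 21 libraries from bulk MEL cells. Several sets followed knockdown (KD) of a co-repressor gene, each against its own libraries labelled WT (called controls here). For Cbfa2t3, which encodes ETO2, 2 controls were compared with 4 KD libraries, 2 of the hairpin sh2 and 2 of sh3. For Irf2bp2, 2 controls were compared with 2 KD libraries of the hairpin sh1. For Kdm1a, which encodes LSD1, 1 control stood against 2 KD libraries. These 13 libraries came from cells that received a short hairpin RNA (shRNA) by lentivirus and were collected 72 h later, with a non-targeting hairpin in the controls. For Gfi1b, 2 controls stood against 2 libraries labelled KD. The study's methods name 2 small interfering RNAs against Gfi1b, with non-targeting ones as controls. The labels give neither the RNA that each of these libraries received nor their time of collection. The last set compared 2 libraries of non-induced MEL cells (0 h) with 2 of induced cells after 96 h of differentiation. All cells were cultures of the same tumour line. The study's methods call the replicates independent biological samples, without saying how they were kept apart, and the p-values measure the spread between these libraries. For Cbfa2t3, sh2 and sh3 were fitted as a single KD group, so the spread there also holds the difference between hairpins. In bulk samples, fewer cells of a type and less RNA per cell cannot be told apart.

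The 13 shRNA libraries held 44519414 to 57684583 counts each, and the 8 Gfi1b and MEL libraries 9929311 to 19623105. A count of 3 stood for 0.0519 to 0.0676 CPM (counts scaled to a common library size) in the former and 0.149 to 0.302 CPM in the latter, which covers counting error only. The targeted genes were lowered in the Cbfa2t3 set (401 and 429 CPM in controls, 202 and 242 with sh2, 123 and 146 with sh3) and the Kdm1a set (152 CPM against 16.9 and 16.3), and modestly in the Irf2bp2 set (116 and 119 against 92.4 and 95.6). Gfi1b had 123 and 145 CPM in controls and 215 and 76.3 CPM in the libraries labelled KD, so the first of these went against its label and the second lay below both controls. Those 2 libraries also differed from each other in the summed level of 5 late erythroid genes, at 1383 CPM in the first and 32.2 CPM in the second, against 15.5 and 25.9 in controls. Over the members, the second non-induced MEL library stood apart from the first by a median absolute difference of 0.30 in log2(RPKM + 1), whereas the first lay 0.12 and 0.15 from the Gfi1b controls. Summed erythroid markers lay between 1379 and 3287 CPM in every library, and summed T cell, B cell, myeloid and fibroblast markers reached at most 1.85 CPM. Summed megakaryocyte markers (Pf4, Itga2b and Gp9) went from 364 to 416 CPM in controls to 775 to 806 CPM in the Irf2bp2 KD and from 375 to 517 CPM in non-induced cells to 1157 to 1286 CPM in induced cells. They went from 399 to 412 CPM in controls to 473 to 586 CPM in the Cbfa2t3 KD, with 1 of 3 called raised, and stood at 335 CPM in the control and 275 to 335 CPM in the Kdm1a KD. In the libraries labelled Gfi1b KD they were at 883 and 172 CPM, against 221 and 284 CPM in controls. Their part in the members' values was not tested.

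Sequence around the start of transcription is shown for 6 members, because their start sites carry the motifs and bound sites described later or because their level changed past the test limits. Each stretch runs from 60 bases upstream to 20 bases downstream of the annotated gene start in the mm9 genome, 5′ to 3′ on the strand of the gene. Capitals mark uninterrupted runs of at least 7 pyrimidines in the first group and the ETS core (CCGGAAG or its reverse complement) in the second. The first group holds Rplp1 and Rpl8, among the most abundant members, and the members with bound sites close to their start.
Rplp1, chr9:61762326-61762405, minus strand: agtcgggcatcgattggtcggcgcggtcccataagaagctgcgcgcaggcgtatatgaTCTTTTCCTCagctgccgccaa
Rpl8, chr15:76734441-76734520, plus strand: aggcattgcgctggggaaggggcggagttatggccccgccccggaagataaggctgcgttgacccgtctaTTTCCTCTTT
Rps27, chr3:90017554-90017633, minus strand: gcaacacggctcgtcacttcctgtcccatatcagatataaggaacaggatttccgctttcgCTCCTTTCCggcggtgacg
Rpl13a, chr7:52391768-52391847, minus strand: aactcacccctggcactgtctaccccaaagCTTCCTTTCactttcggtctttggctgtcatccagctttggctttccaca
Rpl21, chr5:147644406-147644485, plus strand: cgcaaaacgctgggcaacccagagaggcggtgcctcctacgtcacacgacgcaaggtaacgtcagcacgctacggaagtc
The second group shows the ETS core in Rpl8 once more and in Rps7, which was called in differentiation.
Rpl8, chr15:76734441-76734520, plus strand: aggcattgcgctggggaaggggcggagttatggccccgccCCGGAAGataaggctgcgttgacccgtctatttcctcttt
Rps7, chr12:29320799-29320878, minus strand: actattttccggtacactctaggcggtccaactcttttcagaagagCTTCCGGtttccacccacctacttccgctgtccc
In Rplp1, Rpl8 and Rps27 the capital run lies within 20 bases of the annotated start, whereas in Rpl13a it lies further upstream. The annotated start of Rpl13a is uncertain, as described below with the bound sites. Rpl21 has no such run in this stretch.

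The members were among the most abundant messages of these cells. Together they took 5.82 to 7.18% of all counts in a library, with 2.29 to 2.80% on small-subunit and 3.53 to 4.38% on large-subunit genes. The share was 6.53 and 6.42% in the Cbfa2t3 controls, 7.18 and 6.51% with sh2, and 6.41 and 6.12% with sh3. It was 6.09 and 6.45% in the Irf2bp2 controls and 6.52 and 6.77% in the KD. The Kdm1a control gave 6.16% and its KD libraries 7.0 and 7.09%. The Gfi1b controls gave 5.82 and 6.45%, the libraries labelled KD 6.80 and 6.83%, the non-induced MEL libraries 5.98 and 6.24%, and the induced ones 6.44 and 6.64%. The treated libraries lay above their controls in the Irf2bp2, Kdm1a, Gfi1b and differentiation sets, while those of the Cbfa2t3 set overlapped them. On the TMM-scaled CPM used below, the differentiation groups overlapped, with summed members of 58365 and 63872 CPM before and 62669 and 68148 CPM after induction. No test was run on these values.

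**Figure D1:**
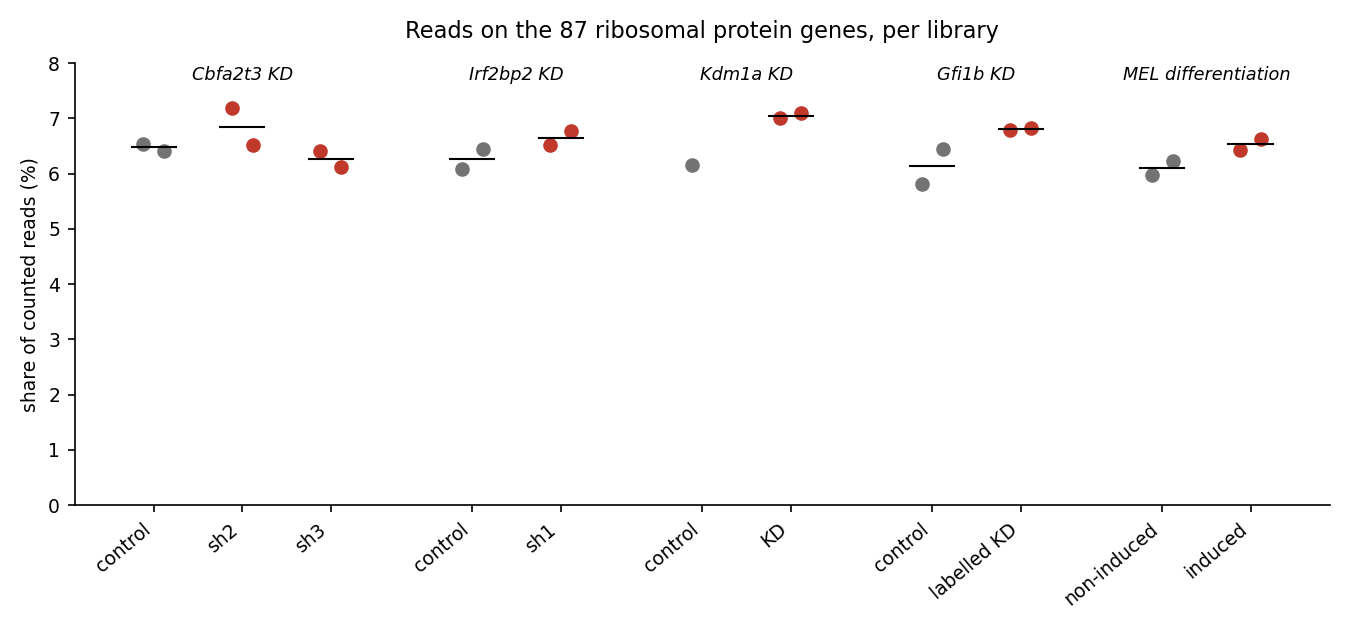
Share of counted reads (%, vertical axis) that fell on the 87 ribosomal protein genes in each of the 21 libraries, by set and group. Grey points are control or non-induced libraries, red points are knockdown or induced libraries, and black lines are group means; all points lie between 5.82 and 7.18%.

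Compared per length, on the RPKM scale, in which reads are divided by gene length and library size, the median member stood at 977 RPKM over the 9 control and non-induced libraries. At least 1000 RPKM was reached by 43 members, 35 lay between 100 and 1000, and 9 lay below 100. Rplp1, a stalk protein that helps to recruit elongation factors, was highest with a median of 3070 RPKM, followed by Rpl41 (3008), Rpl8 (2029), Rpl36a (1966) and the stalk base Rplp0 (1901). The order of the first 2 is not firm, since their ranges over libraries overlapped. At the other end stood the tissue-restricted paralogues, namely Rpl3l (muscle; median 0 RPKM), Rpl10l (testis; 0.16) and Rpl39l (testis; 3.07).

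Some core subunits were listed far below their partners in the same ribosome. Rps27 had a median of 11.8 RPKM, Rpl30 58.7, Rpl34 87.3 and Rpl26 116. Mouse chromosomes hold many processed copies of these genes, and the share of a member's coding sequence, read in words of 36 bases, that also occurs exactly elsewhere in mm9 was 100% for Rps27, 88.5% for Rpl30, 81.5% for Rpl34 and 91.3% for Rpl26. That share was also 100% for Rpl39 and Rpl36a, which were abundant, and 10.6% for Rpl8. It exceeded 50% for 70 of the 83 members with a coding sequence in the annotation, with a median of 92.8%. Rpl3l and Rps19bp1 had no exact copy of any word. Rpl24 is annotated with a coding sequence of 3153 bases, far longer than its protein needs, so its share is not read here. How reads with several places in the genome were counted is not given in the sources used here, so the levels of members with copies are uncertain, and the part of copies in any change was not tested. Rps15a, at 106 RPKM, had 601 and 497 CPM in the Cbfa2t3 controls, and its CPM over RPKM in the first of them corresponds to an assumed length of 5.10 kb, against 0.857 kb for Rpl8. The shortest lengths read in this way were those of Rpl26 (0.0229 kb), Rpl30 (0.106 kb), Rpl34 (0.214 kb) and Rps27 (0.229 kb). Their annotated coding sequences alone hold 438, 348, 354 and 255 bases in that order, longer than each of these lengths. Reads may thus have been counted on only part of these messages. This would bear on their counts, CPM and fold changes as well and was not tested. The RPKM values of these members and of Rps15a, and their place in the order, therefore depend on the length that was assumed.

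**Figure D2:**
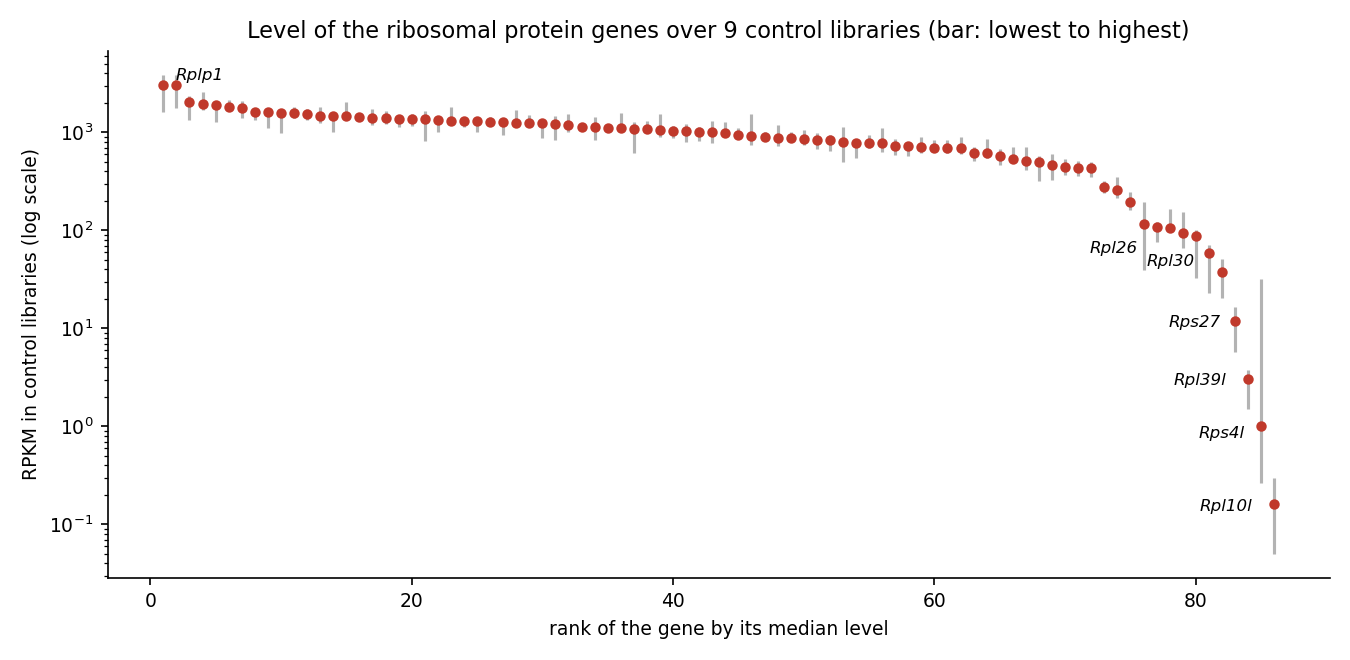
Median RPKM of each ribosomal protein gene over the 9 control and non-induced libraries (vertical axis, log scale) against its rank (horizontal axis), with bars from the lowest to the highest library. Most members form a plateau near 1000 RPKM, and Rps27, Rpl39l, Rps4l and Rpl10l fall off to 11.8, 3.07, 1.02 and 0.16 RPKM; Rpl3l, with a median of 0, is not drawn, and bars are cut at 0.05 RPKM.

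To ask how the members respond to each loss of a co-repressor and to differentiation, counts were tested with edgeR's quasi-likelihood test over all genes of a table, with Benjamini-Hochberg adjustment. A gene was called where its adjusted p was at most 0.05 and its absolute log2 fold change at least 0.5. Rpl3l was below the filter on low counts in every set and Rpl10l in all but the Irf2bp2 set, which leaves 85 or 86 tested members. Fold changes below are treated over control on the log2 scale. The members moved little and as a narrow group. The middle 50% of their fold changes spanned 0.10 in the Cbfa2t3 set against 0.27 for all genes tested, 0.23 against 0.56 for Irf2bp2, 0.22 against 0.56 for Kdm1a, 0.22 against 0.53 for Gfi1b and 0.48 against 1.08 for differentiation. The part of read depth in this narrower span was not tested. The median was 0.02, 0.14, 0.18, 0.13 and 0.11 in that order, with the median of all genes between -0.02 and 0.02. Of the 85 members with a value in all 5 sets, 23 lay above 0 in every set and 1 in none. The matching shares of all genes were not counted, so these counts are not read as a result about the members.

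**Figure D3:**
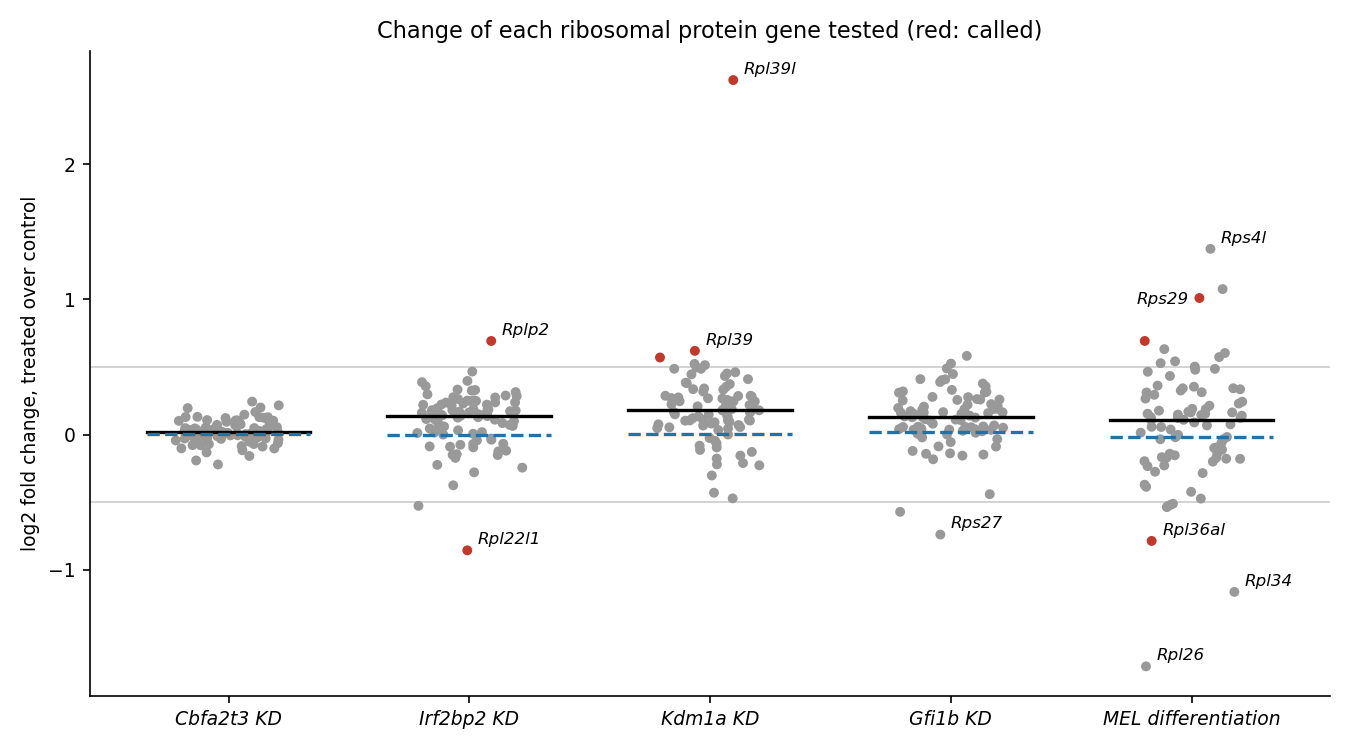
Log2 fold change (vertical axis, treated over control) of every ribosomal protein gene tested in the 5 sets; red points passed the limits for a call (in the Kdm1a set, the fold limit in both KD libraries), black lines are the medians of the members and dashed blue lines those of all genes tested. The grey lines mark -0.5 and 0.5. The points of the Cbfa2t3 set all lie between them, the middle 50% is widest in differentiation, whose members run from Rpl26 at -1.71 to Rps4l at 1.37, and Rpl39l stands highest in the Kdm1a set at 2.62.

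In the Cbfa2t3 KD no member was called, where 5.74% of all genes tested were, 2.99% raised and 2.75% lowered (DESeq2 also called 0 members, and 2 of 85, or 2.35%, had an unadjusted p of 0.05 or less by edgeR, against 26.2% of all genes). All 85 members stayed within 0.5 of no change, against 89.9% of all genes. Without the fold limit edgeR also called 0, against 5.47% of all genes raised and 5.88% lowered. Rpl11, which joins the 5S particle that restrains MDM2, gave the lowest p of the members above 0. It had 951 and 969 CPM in controls and 1175, 1078, 1086 and 1074 CPM in KD libraries. Every KD library was above both controls, with a difference of 0.20 (SE 0.0604, adjusted p = 0.0692 by edgeR), and DESeq2 gave an adjusted p of 0.0312. Over the alternatives its adjusted p ran from 0.0235 (sh2 alone) to 0.400 (without the first control). Rps19bp1 differed by 0.17 (adjusted p = 0.116), Rps15a by -0.22 (adjusted p = 0.352) and Rps12 by -0.13 (adjusted p = 0.385), all by edgeR. The Rps15a difference was -0.079 without the first control and -0.35 without the second. In this set 6 members had every KD library above both controls, where 19.1% of all genes did, and 0 had every KD library below, where 18.7% did. The late erythroid markers moved in the same libraries, with 4 of 5 tested raised.

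The hairpins against Cbfa2t3 differed slightly in the members. With sh3 the members' median lay -0.13 from that with sh2, while the median of all genes was 0.00. No member passed both limits between hairpins (1 with the replicate number as a block), where 3.71% of all genes did (1.92% higher and 1.79% lower with sh3). Without the fold limit 5 passed, all lower with sh3 (5.88% of members, against 5.92% of all genes lower and 7.8% higher). The largest was Rps16, a small-subunit protein, at 1046 and 985 CPM with sh2 and 838 and 758 CPM with sh3. Its values did not overlap between hairpins, with a log2 difference of -0.35 (SE 0.0673, adjusted p = 0.00683 by edgeR). The controls, at 840 and 880 CPM, lay between. Without the second sh3 library none of the 5 passed (adjusted p = 0.0747 for Rps16 by edgeR), and Rpl12 and Rplp0 did not pass whichever library was left out. The first sh2 library carried the largest share of member counts (7.18%), and without it the members' median in the whole KD moved from 0.02 to -0.03.

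In the Irf2bp2 KD the members' median was 0.14, and 2 of 86 tested were called, where 22.5% of all genes were (10.1% raised and 12.5% lowered). Without the second control 6 members were called (24% of all genes) and without the first KD library 5 (20.2% of all genes). Rplp2, the partner of Rplp1 in the ribosomal stalk, had 339 and 425 CPM in controls and 595 and 639 CPM in KD libraries. The groups did not overlap, and the rise was 0.69 (SE 0.104, adjusted p = 4.1e-05 by edgeR). Rplp1 (0.13, adjusted p = 0.377) and Rplp0 (0.23, adjusted p = 0.0728) did not pass the test, also by edgeR. Rpl22l1, a paralogue of Rpl22 that can take its place in the large subunit, had 43.6 and 49.6 CPM in controls and 22 and 29.4 CPM in KD libraries. It fell by 0.86 on the log2 scale (SE 0.117, adjusted p = 1.47e-05 by edgeR). Rpl22 itself, at 600 and 555 CPM against 492 and 596, overlapped between groups, so the Rpl22l1 level per length went from 33.7 and 38.7% of that of Rpl22 to 19.3 and 22.9%.

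Smaller rises were frequent in this set. Without the limit on the fold change, 22 members were raised (25.6%, against 23.6% of all genes) and 2 lowered (2.33%, against 23.6%). The raised share was thus near that of all genes and the lowered share below it. Among the raised were the small peptide Rpl41 (0.40, adjusted p = 0.00297), Rpl27 (0.47, adjusted p = 0.00249), Rps10 (0.36, adjusted p = 0.00397) and Rps29 (0.39, adjusted p = 0.00523), all by edgeR. The second lowered member was Rpl34 (-0.38, adjusted p = 0.0122 by edgeR). Both KD libraries were above both controls for 44 members, where 36.7% of all genes did so, and below for 7, where 37.4% did. In these libraries all 5 late erythroid markers tested and 6 of 7 erythroid regulators were raised.

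The Kdm1a KD had 1 control library, whose own spread is unknown, so no p-value is given. The count took genes that lay at least 0.5 from the control in each KD library, on the same side (log2 of CPM with a prior count of 2). This held upward for 3 of 85 members, where 13.1% of all genes did so, and downward for 0, where 9.8% did. Rpl39l, a paralogue of Rpl39 best known from the testis, had 1.21 CPM in the control and 6.36 and 9.17 CPM in KD libraries, on 59, 345 and 419 counts. Its difference of 2.62 was the largest of any member in any set. Rpl39, a short protein that lines the exit tunnel, went from 294 CPM to 440 and 462 CPM (0.62). Rpl36a went from 845 CPM to 1196 and 1317 CPM (0.57), while its paralogue Rpl36al went the other way, from 251 CPM to 174 and 200 CPM (-0.43). With 1 KD library left out, 5 members (without the first, where 27.4% of all genes did) or 8 (without the second, where 28.1% did) passed the limit in either direction. Farthest down were Rps27l, a p53-responsive paralogue of Rps27 (-0.47), Rpl36al and Rpl18 (-0.30). Few of the Rpl39l words (9.92%) had exact copies elsewhere, whereas those of Rpl39 and Rpl36a had copies throughout. Both KD libraries were above the control for 65 members, where 44.5% of all genes were, and below for 14, where 44.3% were. Of 4 late erythroid markers 2 lay past the limit downward in the same libraries.

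In the Gfi1b set no gene of 11190 tested was called (0%), members included, while 2 members (2.35%, against 7.01% of all genes) had an unadjusted p of 0.05 or less by edgeR and DESeq2 called 0 members. The SE for Rpl11, for example, was 0.0604, 0.107, 0.187 and 0.268 in the Cbfa2t3, Irf2bp2, Gfi1b and differentiation sets. With such wide errors, 0 calls in the Gfi1b set do not show that the members stayed unchanged. The 2 members were Rpl28 at 584 and 660 CPM in controls against 951 and 838 CPM in the libraries labelled KD (0.52, adjusted p = 0.690 by edgeR) and Rps4l at 26.0 and 25.3 against 40.8 and 35.9 CPM (0.58, adjusted p = 0.699 by edgeR). Neither overlapped between groups. Farthest down were Rps27 (-0.74, adjusted p = 0.772) and Rpl30 (-0.57, adjusted p = 0.790), by edgeR. Both libraries labelled KD lay above both controls for 43 members, where 19.7% of all genes did, and below for 3, where 19.6% did. The median of 0.13 was 0.14 without the first library labelled KD, in which Gfi1b and the late erythroid markers were high, and 0.08 without the second. It was 0.054 without the first control and 0.20 without the second. Without the second library labelled KD, 10 members were called, as were 26.7% of all genes.

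In differentiation 27.2% of all genes were called, and 3 of 85 members (12.4% of all genes raised and 14.8% lowered). Rps29, a zinc-binding small-subunit protein and a Diamond-Blackfan anaemia gene, had 422 and 199 CPM in non-induced cells and 589 and 663 CPM in induced cells. Both induced values lay above both others, by 1.01 (SE 0.308, adjusted p = 0.0265 by edgeR). The low value of 199 CPM came from the second non-induced library, and without it the difference was 0.57 (adjusted p = 0.15 by edgeR). Rps7, which takes part in making the small subunit's rRNA, had 572 and 629 CPM before and 937 and 1004 CPM after induction, with no overlap (0.69, SE 0.232, adjusted p = 0.0395 by edgeR). Rpl36al had 185 and 216 CPM before and 133 and 99.3 CPM after, and fell by 0.79 (SE 0.249, adjusted p = 0.031 by edgeR). Without the second non-induced library Rps7 stood at 0.76 (adjusted p = 0.0649) and Rpl36al at -0.67 (adjusted p = 0.153), so that 0 members were called by edgeR, against 12.5% of all genes. The call for Rps7 was lost whichever library was left out (adjusted p = 0.0649 to 0.221 by edgeR), and that for Rpl36al in 3 of 4 such fits. With the replicate number as a block 7 members were called, against 33.4% of all genes.

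The members spread further in differentiation than in any KD set, with 68 of 85 (80%) within 0.5 of no change, against 47.1% of all genes. Both induced libraries lay above both non-induced ones for 29 members, where 32.8% of all genes did, and below for 17, where 34.5% did. The farthest down were members with few counts. Rpl26 had 26 and 35 counts before and 11 and 7 after (-1.71, adjusted p = 0.103), and Rpl34 145 and 86 before and 45 and 47 after (-1.16, adjusted p = 0.0676), by edgeR. The second non-induced library differed from the first in single members in both directions. It was lower for Rplp1 (770 against 1626 CPM), Rplp2 (383 against 554) and Rplp0 (1767 against 2627), and higher for Rpl5 (2174 against 1395), Rpl11 (1071 against 643) and Rpl41 (1344 against 913). The members' median of 0.11 was 0.12 without this library and 0.02 without the first non-induced library.

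Rps4l, a paralogue of the X-linked Rps4x, was low in some libraries and well above that in others. It had 0.286 to 0.987 CPM in the 13 shRNA libraries, on 14 to 56 counts. In the Gfi1b set it had 25.3 to 40.8 CPM, and in the MEL set 29.2 CPM in the first non-induced library and 33.0 and 44.9 CPM in the induced ones. The second non-induced library had 3 counts (0.252 CPM), just below the range of the shRNA libraries. The Rps4l difference of 1.37 in differentiation (adjusted p = 0.262 by edgeR) rests on that library. Over all members it lay a median of 0.26 to 0.38 in log2(RPKM + 1) from the shRNA libraries, and 0.30 from the first non-induced library. Rps4x was present throughout, at 1086 to 1512 CPM in the shRNA libraries and 1252 to 2178 CPM in the others.

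**Figure D4:**
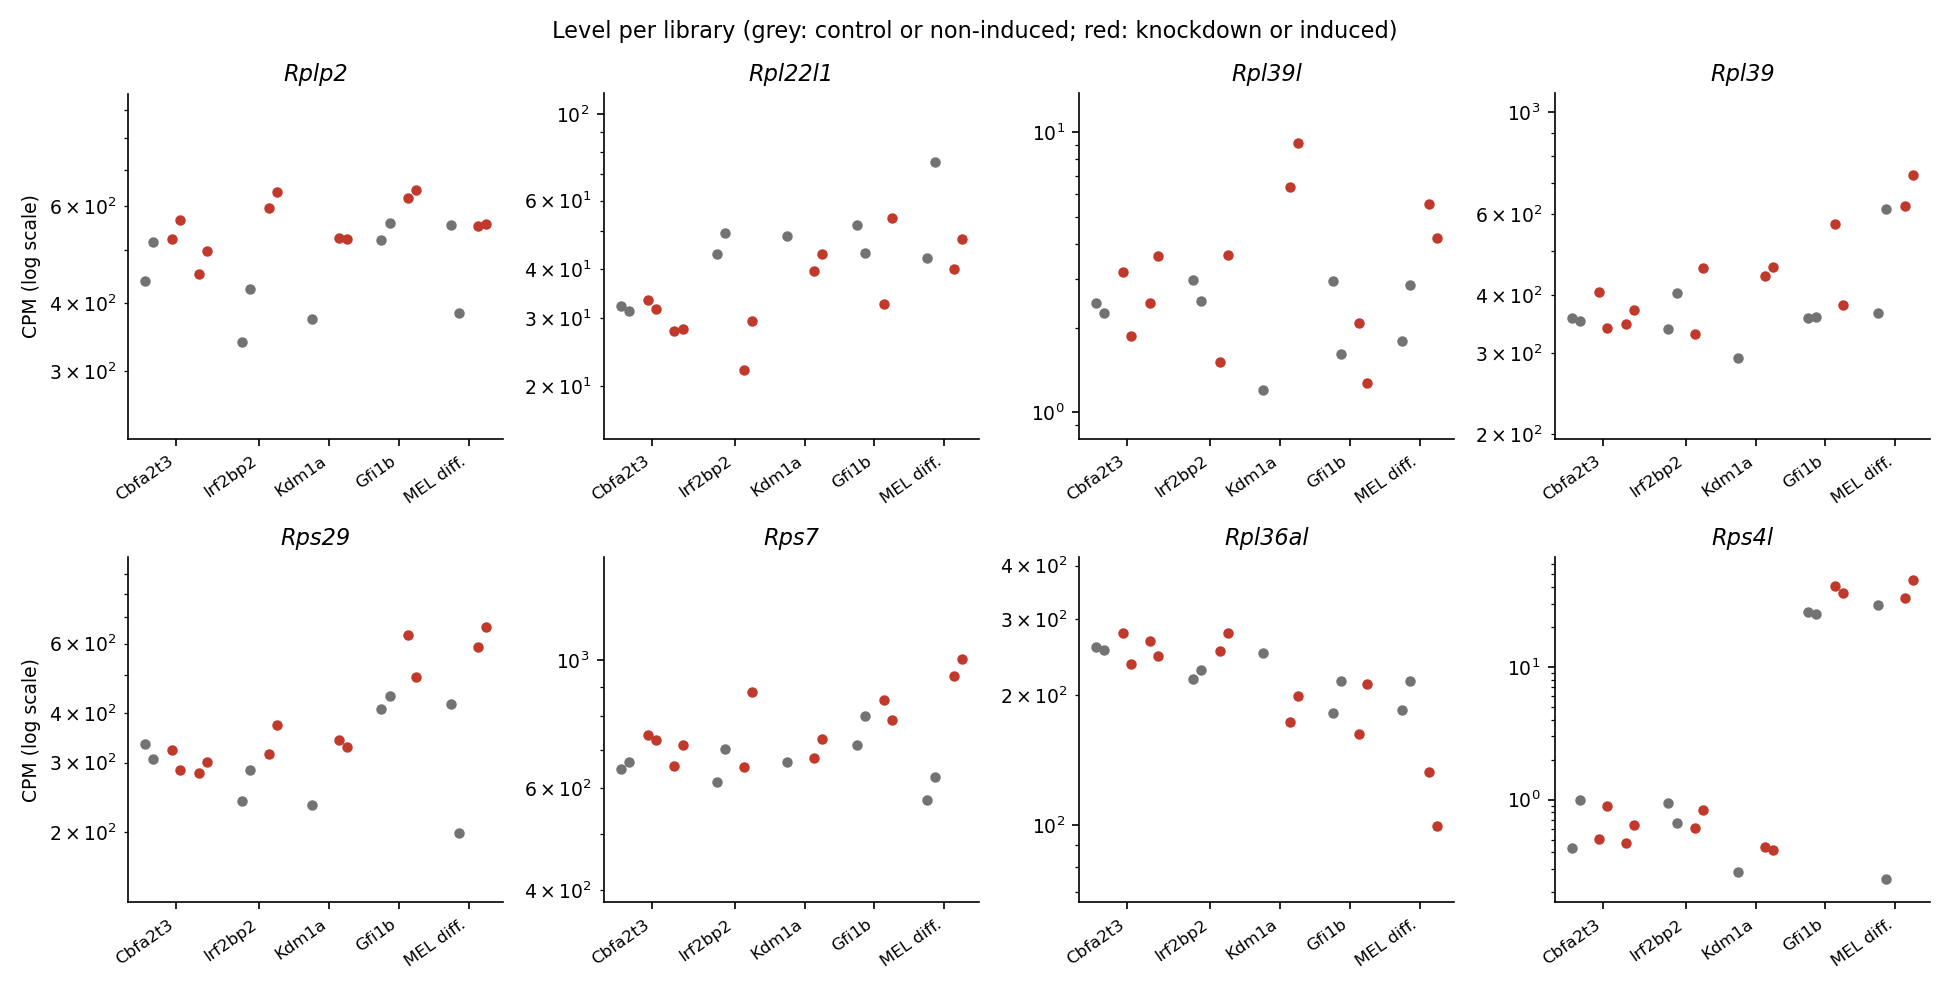
Level (vertical axis, CPM on a log scale whose limits differ between genes) of 8 members in each of the 21 libraries, with grey for control or non-induced and red for knockdown or induced. Rpl39l reaches 6.36 and 9.17 CPM in the Kdm1a KD libraries, and Rps4l drops to 0.252 CPM in the second non-induced MEL library, just below the range of the shRNA libraries.

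Rps19, the gene most often affected in Diamond-Blackfan anaemia, had 451 and 510 CPM in the Irf2bp2 controls and 535 and 597 CPM in the KD (0.24, adjusted p = 0.0499 by edgeR, below the fold limit), and 451 and 411 CPM before against 450 and 411 CPM after differentiation. Rpl5 lay at -0.02, -0.15, 0.16, 0.26 and 0.23 in the Cbfa2t3, Irf2bp2, Kdm1a, Gfi1b and differentiation sets and Rpl11 at 0.20, -0.03, 0.10, 0.04 and -0.51, with no call. The values in differentiation depend on the second non-induced library. For Rpl11 it had 1071 CPM, whereas the first had 643 CPM and the induced libraries 585 and 617 CPM. For Rpl5 it had 2174 CPM, between the induced libraries at 1869 and 2315 CPM, whereas the first had 1395 CPM. Rps24 lay between -0.08 and 0.33, Rpl35a between -0.18 and 0.12, and Rps26 between -0.09 and 0.28.

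The ribosomal proteins were set against the rest of the machinery that builds and serves ribosomes, by lists chosen with earlier results of these data known. In differentiation 35 of 45 ribosome assembly genes were lowered (all genes 14.8%), with a median of -1.01. They included Fbl, the methylase of nucleolar RNA particles, which fell from 252 ± 46.3 to 62.7 ± 26.7 CPM (SD, n = 2 and 2) by 2.0 on the log2 scale (adjusted p = 0.000507 by edgeR), and Wdr12, a factor of large-subunit assembly, which fell by 1.83 (adjusted p = 0.0013 by edgeR). Of 15 genes of RNA polymerase I, which transcribes ribosomal RNA, 7 were lowered with a median of -0.63, among them the subunits Polr1a (-1.74) and Polr1e (-1.60). Of 77 mitochondrial ribosomal protein genes 18 were lowered, with a median of -0.40. The cytosolic ribosomal proteins, with a median of 0.11 and 1 of 85 lowered, had 2 raised beside it.

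These counts depended on single libraries. Without the second non-induced library 16 assembly genes, 3 polymerase I genes and 3 mitochondrial genes were lowered (all genes 6.52%), with medians of -0.88, -0.59 and -0.49. Without the second induced library the counts were 14, 2 and 1 (all genes 6.99%), and without the first non-induced library 25, 3 and 7 (all genes 7.25%). The medians were below 0 in each of these fits. In the Gfi1b set no gene of these lists was called, and the median of the assembly genes was -0.41. It was -0.08 without the first library labelled KD, and -0.78 without the second, where 38 of them were lowered (all genes 12%).

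Of 17 genes listed as translation factors and other genes with TOP messages, 4 were lowered in the Irf2bp2 KD (all genes 12.5%), namely Npm1 (-0.77), Hnrnpa1 (-0.61), Eif3a (-0.56) and Eif2a (-0.53), and 0 raised. Npm1 encodes a nucleolar chaperone and Hnrnpa1 a splicing protein, whereas Eif3a and Eif2a encode initiation factors. Without the first Irf2bp2 KD library 2 were lowered (all genes 10.9%). In differentiation Npm1 (-1.24) and Eif3a (-0.81) were lowered and Tpt1 (0.72) raised. In the Cbfa2t3 KD no gene of the assembly, polymerase I, mitochondrial or translation factor lists was called. Among 13 tested regulators of ribosomal protein output, Myc, which drives ribosome production, was lowered in differentiation (-1.60, adjusted p = 0.00395 by edgeR), while Rps6kb2 (1.27) and Zbtb7a (1.05) were raised. In the Irf2bp2 KD Zbtb7a was raised (0.75) and Larp4 lowered (-0.59). In the Kdm1a KD, for which no p-value is given, Larp1 (-1.15), Larp4 (-0.62), Eif4ebp1 (-0.58) and Eif4ebp2 (-0.55) lay past the limit downward in both libraries (all genes 9.8%). Of 12 genes of the p53 response, through which free ribosomal proteins are known to signal, 1 was raised in the Cbfa2t3 KD (Phlda3, 0.51), where 2.99% of all genes were. In the Kdm1a KD Bbc3 (1.16), Trp53inp1 (1.01) and Pmaip1 (0.93) lay past the limit upward (all genes 13.1%) and Phlda3 (-0.68) and Zmat3 (-0.68) downward (all genes 9.8%). In the Irf2bp2 KD Phlda3 was raised (1.15) and Sesn2 lowered (-0.94), where 10.1 and 12.5% of all genes were. In differentiation Trp53inp1 (2.44) and Mdm4 (0.85) were raised and Cdkn1a lowered (-1.68), where 12.4 and 14.8% of all genes were. With so few genes in each of these lists, the counts are not read as a result about them.

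**Figure D5:**
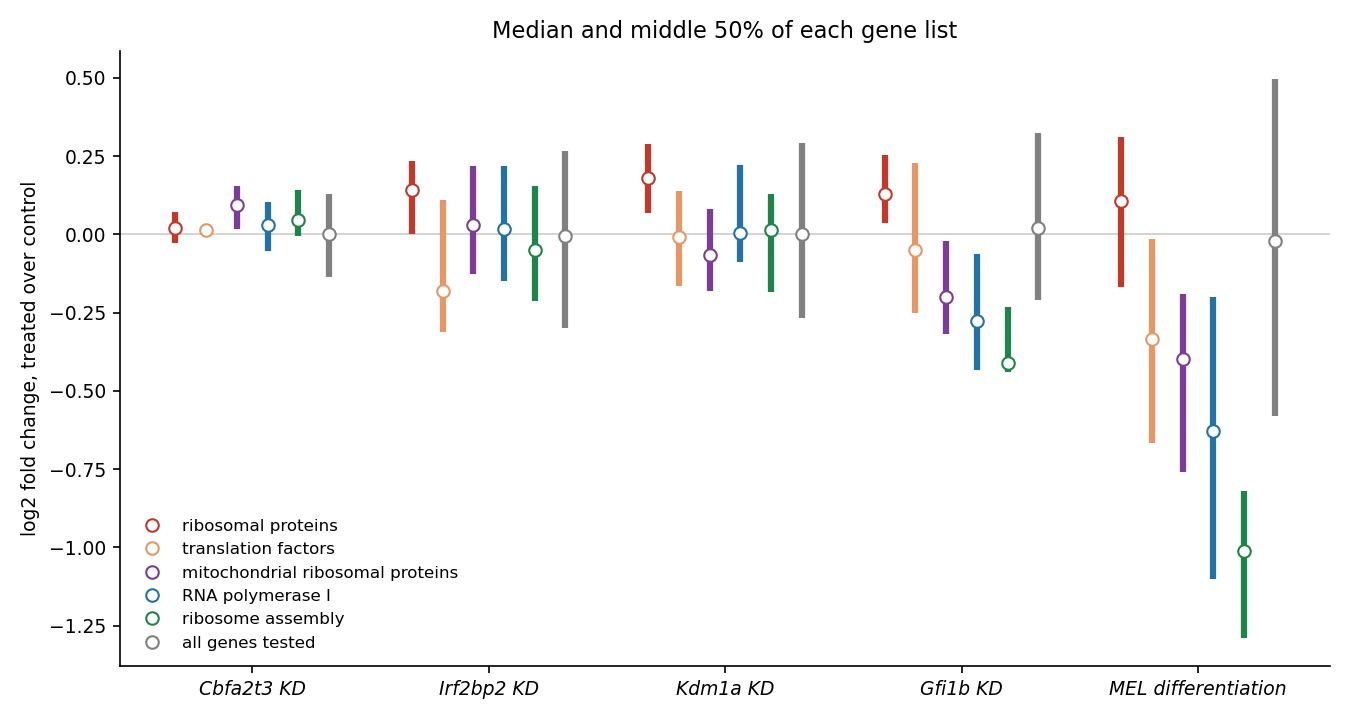
Median (circle) and middle 50% (bar) of the log2 fold change (vertical axis, treated over control) of ribosomal protein genes, 4 other lists and all genes tested in each set. In differentiation the ribosomal proteins lie at 0.11 while ribosome assembly lies at -1.01, RNA polymerase I at -0.63 and mitochondrial ribosomal proteins at -0.40.

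Binding of ETO2 and IRF2BP2 near the members was read from the deposited list of sites, which is sorted into ETO2-only, shared and IRF2BP2-only sites and rests on 1 IRF2BP2 ChIP library of this series, while its ETO2 data came from an earlier dataset. A site was counted where its centre was within 1 kb of the annotated start of a gene (GENCODE annotation on mm9). Of the 83 members in that annotation 25 (30.1%) had a site, all of them IRF2BP2-only, against 11.4% of 22380 protein-coding genes for any class, 10.6% for IRF2BP2-only and 24.7% of mitochondrial ribosomal protein genes. No member had an ETO2-only or shared site within that distance, and only 0.308 and 0.688% of all genes had one, so that 0 of 83 lies near the background. Among other genes with at least 100 RPKM in the Irf2bp2 controls 37.5% had one, against 31.1% of members at that level, and at 300 RPKM the shares were 47.8 and 29%. The members' share was below that of other genes at both levels, and above it at 10 RPKM (31.2 against 26.7%). Within 500 bp 24 members had a site, all IRF2BP2-only (9.12% of all genes for any class, 8.64% for IRF2BP2-only). Within 5 kb 38 had one of any class (18% of all genes) and 36 an IRF2BP2-only one (15.6%). At that distance 2 had an ETO2-only site (1.45% of all genes) and 2 a shared one (2.48%). Within 1 kb 10 had a site of at least the median fold of its class (5.21% and 4.79%). Among the sites closest to a start were those of Rpl13a, centred 4 bp away with 8.1 times the IgG signal, Rps28 (13 bp, 3.27 times), Rpl21 (22 bp, 3.47 times) and Rps27 (26 bp, 7.33 times). The highest were at Rpl9 (17 times the IgG signal, 100 bp away) and Rps15 (11.5 times, 43 bp away). Rpl13a is annotated with a coding sequence of 1272 bases, longer than the 1.02 kb that its CPM over RPKM implies. The distance of 4 bp may therefore refer to the start of a longer transcript than the one counted.

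In the Irf2bp2 KD, the 25 members with a site had a median of 0.16 with 7 raised and 0 lowered by the adjusted p alone. The 57 tested members without one had a median of 0.14 with 13 raised and 2 lowered. Among all genes, 664 of 2286 with a site were raised and 525 lowered, and 1965 of 8493 without one were raised and 2078 lowered, so the members' raised shares were near those of all genes. Both called members, Rplp2 and Rpl22l1, had no site within 1 kb. The difference between members with and without a site was not tested.

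Letters of known promoter motifs were searched in the stretch from 250 bases upstream to 50 downstream of the starts of 83 members and 22365 genes. The ETS core CCGGAAG, on either strand, occurred in 27.7% of members and 10.8% of all genes. A run of at least 7 pyrimidines on the gene's strand within 30 bases of the start occurred in 47.0% of members and 33.2% of all genes. The YY1 core AAGATGGC occurred in 7.23% against 3.30%, the GC box CCCGCCC in 41.0% against 31.8%, the E-box CACGTG in 10.8% against 7.78%, the TATA box TATAAA in 12% against 13.4%, the GATA element AGATAA in 7.23% against 10.4%, and a repeated GAAA with 2 bases between, the core of interferon response elements, in 7.23% against 3.78%, each on either strand. The ETS core and the pyrimidine run stood furthest above all genes in percentage points. Between members with and without a bound site, the ETS core had shares of 28.0 and 27.6%, the pyrimidine run 56.0 and 43.1%, the TATA box 28.0 and 5.17%, the GC box 24% and 48.3%, and the GATA element 0 and 10.3%, on 25 and 58 members and with no test. A match describes letters in the window only. The annotated starts can differ from those used in MEL cells, so runs at the true start may be missed.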

How the data were processed

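Per the labels, total RNA of MEL cells was sequenced, and the submitters' processing notes name TopHat2, Bowtie and DESeq2 with the mm9 build. The authors deposited 5 tables of raw read counts and RPKM per RefSeq gene, with the mapping of multi-copy reads not given in the sources used here. Their own fold change, p-value and q-value columns in the deposited tables were not used. The deposited site list gives, from the authors, a fold ratio over IgG and an adjusted p-value per site, per class.

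Counts were fitted per table with edgeR 4.0.16 in R 4.3.3 (TMM, filterByExpr, quasi-likelihood test, Benjamini-Hochberg adjustment), since the tables were made separately. A check on simulated data came first, and it recovered far fewer of the changes put in for the Gfi1b and differentiation sets than for the others. CPM values are TMM-scaled. RPKM was used to compare genes and, without TMM scaling, for the distances between libraries over the members. The members and lists were chosen with earlier results of these data known. Genes named were the paralogues with their partners, the stalk and Diamond-Blackfan anaemia genes, the called members (or, where none was called in a direction, the 2 with the lowest p), the 3 farthest each way in the Kdm1a set, the 5 highest and lowest by RPKM, those nearest to a site and the largest changes of each other list. Others named were chosen after their values were seen. Promoters, coding words and sites were read from mm9 with its GENCODE annotation, which matched 83 of 87 members by symbol. Alternatives were DESeq2 1.42.0, other scalings and filters, a replicate block and each library left out. Results on a few genes are not reported here.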

Additional observations from a re-analysis of the deposited data

Results flagged for a closer look

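In the 4 Cbfa2t3 KD libraries, 1 library stood apart from the others for 3 members, among 31 values checked in this way (the summed member level and single members). The gap of that library to its nearest neighbour, as a share of the whole range, was 0.883 for Rpl11, 0.869 for Rps4x and 0.8291 for Rpl5, each above Dixon's 95% limit for 4 samples. In each case it was the first sh2 library, with 1175 CPM against 1074 to 1086 CPM for Rpl11, 1318 against 1086 to 1117 for Rps4x and 1663 against 1463 to 1497 for Rpl5. Chance alone passes this limit in about 1 of 20 groups. The same library had the largest share of counts on ribosomal protein genes.

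Between the hairpins against Cbfa2t3, 5 members differed by edgeR's test of the difference itself, without a fold limit, all lower with sh3. They were 5.88% of the members tested, near the 5.92% of all genes that were lower, while 7.8% of all genes were higher. The log2 differences were -0.35 for Rps16 (adjusted p = 0.00683), -0.23 for Rpl13 (adjusted p = 0.0305), -0.22 for Rpl12 (adjusted p = 0.0309), -0.23 for Rps10 (adjusted p = 0.0371) and -0.22 for Rplp0 (adjusted p = 0.0484), all by edgeR. None of the 5 passed without the second sh3 library. Rpl12 (adjusted p = 0.0569 to 0.236 by edgeR) and Rplp0 (0.0552 to 0.310) lost the call whichever library was left out, and Rplp0 also with library size alone (0.0576).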

How the results depend on the processing

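Over 34 results and 401 alternative values no direction reversed among called values. Other scalings moved the median of all genes by less than 0.1, while DESeq2's test and the fit without a filter, with other genes tested, moved it by 0.14 in the Gfi1b set. The members' median in the Cbfa2t3 KD was 0.02 and became -0.053 with sh3 alone. Leaving out 1 library each time gave -0.03 to 0.04 there, 0.054 to 0.20 in the Gfi1b set and 0.02 to 0.12 in differentiation. Members called in the Irf2bp2 KD were 24 without a fold limit (47.1% of all genes) and 3 to 6 with 1 library left out. In the Gfi1b set 2 passed at an unadjusted p (6.9% of all genes), and 0 to 10 with 1 library left out. In differentiation 5 were called by DESeq2 (26.6% of all genes), 7 without a filter on low counts (21.7%), 7 with the replicate number as a block (33.4%), 12 at an unadjusted p (39.3%, against 14.1% of members) and 0 to 3 with 1 library left out. Between hairpins 1 was called without the filter, 1 with the replicate block and 1 at an unadjusted p, where the main fit called 0 (3.71% of all genes). Without a fold limit 5 were called, all lower with sh3 (5.88% of members, against 5.92% of all genes lower and 7.8% higher). These counts are not read as a result about the members. In the Kdm1a KD 5 to 8 members passed with 1 KD library left out, and 4 with a prior count of 0.5. The main count was 3 of 85 members (3.53%), against 22.9% of all genes in either direction. The shares of all genes with 1 KD library left out are given with the Kdm1a results above. That at a prior count of 0.5 is not given here, so the 4 are not read as a result about the members. Sites within 5 kb were found for 38 members, and 10 had a site of at least the median fold of its class within 1 kb. The cause of these shifts was not tested. Same-numbered libraries correlated in their deviations by 0.12 to 0.25 in the Cbfa2t3 set, 0.20 in differentiation and at most 0.025 in the other sets. No label ties a number to a shared batch, and with only 2 numbers per group the pairing cannot be settled. The replicate block left the counts of the Cbfa2t3, Irf2bp2 and Gfi1b sets at 0, 2 and 0. A group left with 1 library was assumed to vary like the others. The alternatives for the other gene lists were chosen after seeing the data, and 19 of their values moved by over 1.5 times. Lower depth in the Gfi1b and MEL sets limits members with few counts, such as Rps27, Rpl26, Rpl30 and Rpl39l.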

Other observations

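In differentiation, Rpl39l had 1.79 and 2.86 CPM in non-induced and 5.53 and 4.18 CPM in induced libraries, a log2 difference of 1.08 (adjusted p = 0.148 by edgeR). These values rest on 34 to 80 counts, and both induced libraries lay above both non-induced ones. In the Irf2bp2 KD it had 1.51 and 3.63 CPM against 2.97 and 2.49 CPM in controls.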
